A study of Mus musculus with 62 samples.

Results

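The striatum of female mice was compared between animals given the lowest dose of a polychlorinated biphenyl (PCB) mixture and animals given vehicle. By the tissue and treatment in the sample labels, 5 striatum libraries belonged to 0.1 mg/kg (animals 23, 24, 25, 28 and 29) and 4 to vehicle (animals 3, 4, 7 and 8), which made 9 of the 21 striatum libraries and of the 62 libraries of the series. All mice were C57BL/6 females, an inbred laboratory strain, with no transgene or deletion named in the labels. The mixture, named MARBLES in the series description, was given by mouth, and the vehicle group is the 0 mg/kg group of the same design. The other striatum libraries came from 6 mice at 1 mg/kg and 6 mice at 6 mg/kg. The labels used here state neither the age of the mice nor the length of dosing. RNA was taken from tissue punches, so each library mixes all cell types of the punch. The animal number in a title was taken to name a mouse, and p-values measure the spread between these libraries.

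PCBs are persistent industrial chemicals once used in electrical equipment, and some of them act on the ryanodine receptor, on thyroid hormone signalling and on the aryl hydrocarbon receptor. The striatum is the input station of the basal ganglia. Most of its neurons are GABAergic projection neurons that carry either the D1 or the D2 dopamine receptor, and cholinergic and GABAergic interneurons make up the rest. Newly made secreted and membrane proteins fold in the endoplasmic reticulum (ER) with the help of chaperones such as BiP, the product of Hspa5, and cells that hold unfolded protein in the ER raise these chaperones through the unfolded protein response. Heat shock proteins do the same work in the cytosol.

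The 5 libraries at 0.1 mg/kg held 8737307 to 12019651 counts and the 4 vehicle libraries 10147296 to 10459212, and the group means did not differ beyond their spread (exact permutation test, two-sided p = 0.611). Levels below are CPM, the counts of a gene relative to the total of its library after scaling for library composition. Markers of striatal neurons were abundant in every library: Ppp1r1b, the dopamine signalling phosphoprotein DARPP-32, was at 984 to 2535 CPM in vehicle and 1083 to 1842 CPM at 0.1 mg/kg, and the liver marker Apoa2 stayed at or below 1.54 CPM. The libraries differed in markers of tissue that lies around the striatum. The 10 markers of cortical projection neurons summed to 241 to 1382 CPM in vehicle, with the highest value in animal 8, and to 296 to 587 CPM at 0.1 mg/kg. The 8 thalamic and hypothalamic markers summed to 95.5 to 430 CPM in vehicle and 90.5 to 831 CPM at 0.1 mg/kg, and the 8 choroid plexus and ependymal markers to 55.9 to 742 CPM and 63.2 to 1254 CPM. Animal 28 held the highest value of both lists at 0.1 mg/kg. No member of these 3 lists passed an unadjusted p of 0.05 between the groups, with median log2 fold changes of -0.89 for the cortical, 0.92 for the thalamic and hypothalamic and 0.27 for the choroid plexus and ependymal markers. These medians rested on single libraries. The cortical median was -0.14 without vehicle animal 8 and -1.19 without vehicle animal 4, where 4 of the 10 markers were lower at an unadjusted p under 0.05, beside 2.72% of all genes in that fit. The thalamic and hypothalamic median was 0.081 over the 6 markers still tested without animal 28 and 1.55 without vehicle animal 4, and the choroid plexus median was -0.64 and 0.95 in the same 2 fits. The members with the smallest p were Fezf2 (-1.43, unadjusted p = 0.0534) and Tbr1 (-0.89, unadjusted p = 0.0824), both transcription factors of cortical neurons, and the ependymal genes Ccdc153 (0.53, unadjusted p = 0.323) and Foxj1 (0.28, unadjusted p = 0.451), each value a log2 fold change at 0.1 mg/kg against vehicle. Fezf2 and Tbr1 were at -0.28 and -0.25 without vehicle animal 8 (unadjusted p of 0.666 and 0.593). Without vehicle animal 4 they were at -1.74 and -1.13 (unadjusted p of 0.0221 and 0.0308). Those of the hypothalamic list, the neuropeptide genes Hcrt and Pmch, reached 6.09 and 11.8 CPM in animal 28 (unadjusted p of 0.192 and 0.203), and without animal 28 neither was tested.

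**Figure D1:**
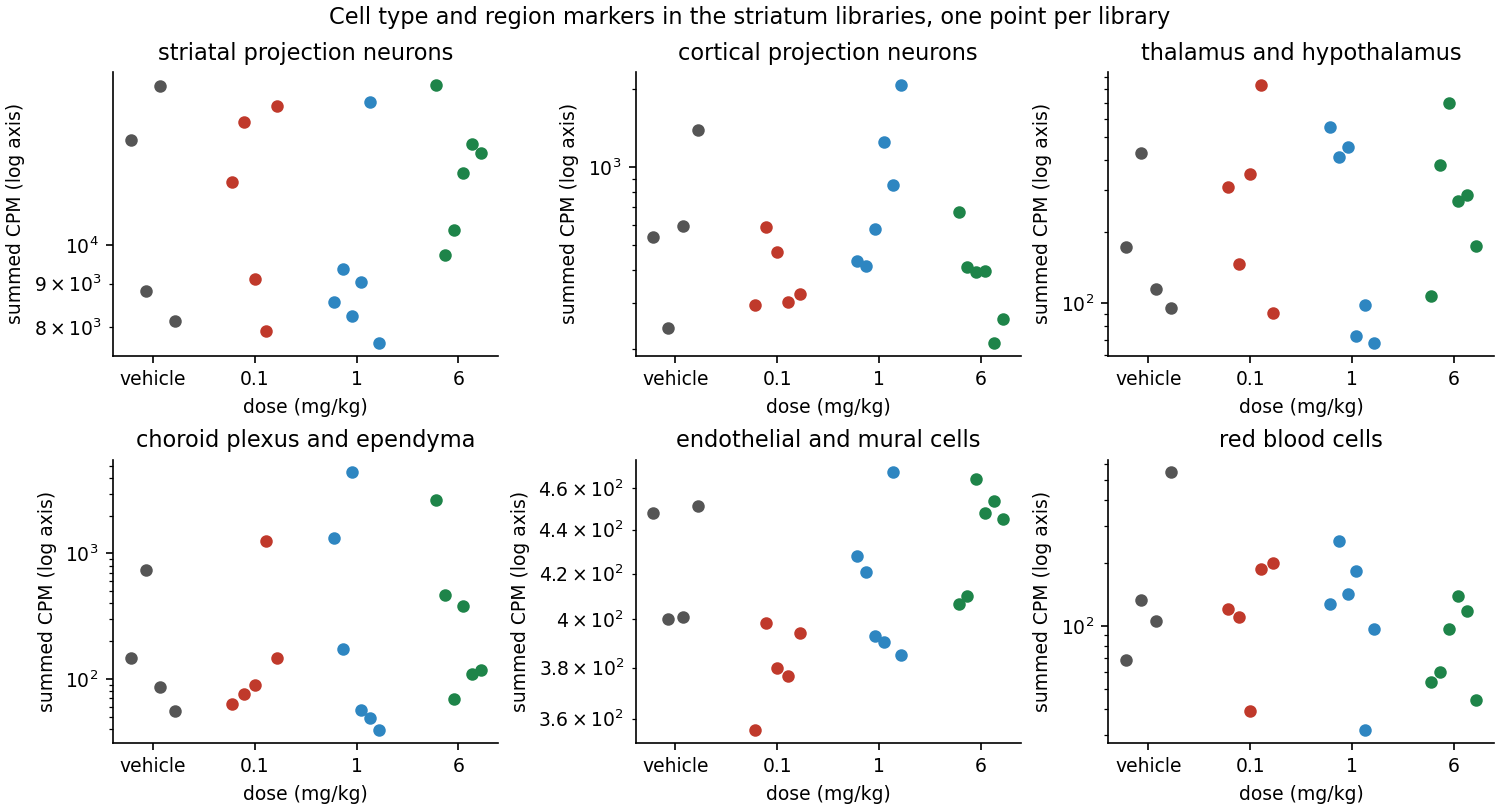
Summed CPM (log axis) of 6 marker lists in each striatum library, by dose, with 1 point per library. Sums for striatal projection neurons overlapped between vehicle and 0.1 mg/kg, the cortical sum was highest among vehicle libraries in animal 8 (1382 CPM), and the endothelial and mural sums at 0.1 mg/kg (356 to 399 CPM) lay just below those of vehicle (400.0 to 451 CPM).

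No gene passed an adjusted p of 0.05 between 0.1 mg/kg and vehicle among 15118 genes tested with edgeR's quasi-likelihood test (percent called 0), and the smallest Benjamini-Hochberg adjusted p was 1.00. At an unadjusted p under 0.05, 383 genes (2.53%) differed, of which 186 (1.23%) were higher and 197 (1.30%) lower at 0.1 mg/kg. DESeq2 passed 1 gene, Hspa5, with an adjusted p of 0.0457, and placed 413 genes at an unadjusted p under 0.05. Every 0.1 mg/kg library lay above every vehicle library for 122 genes (0.807%) and below for 76 genes (0.503%). The median log2 fold change over all genes was -0.0024 and the median standard error (SE) 0.16, so for 88.9% of genes the 95% interval excluded a 2-fold difference and for 69.5% it excluded a 1.5-fold difference. Genes given below with an unadjusted p therefore did not pass the test over all genes, and are described by their values. A value given without a name beside a gene is its log2 fold change at 0.1 mg/kg against vehicle.

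The list with the most members at an unadjusted p under 0.05 was that of the ER and cytosolic chaperones, which were higher at 0.1 mg/kg. Of the 20 genes on a list of unfolded protein and heat shock genes, 13 were higher at an unadjusted p under 0.05, against 1.23% of all genes, and none was lower. All 20 had a positive log2 fold change, with a median of 0.29 against -0.0024 over all genes, and in 4 of the 20 the groups did not overlap, against 0.807% of all genes. The ER members held 9 of these 13 out of 14, including all 4 without overlap, and the cytosolic members 4 out of 6. The list came from earlier work on the same data, so its count is a description and not independent evidence.

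Hspa5, which encodes the ER chaperone BiP that binds unfolded chains and holds the stress sensors inactive, had the smallest p of all genes in the higher direction. Its level was 271, 301, 312 and 336 CPM in vehicle animals 3, 4, 7 and 8, and 368, 369.5, 468, 494 and 478 CPM in 0.1 mg/kg animals 23, 24, 25, 28 and 29. The groups did not overlap, and animals 25, 28 and 29 lay well above animals 23 and 24. The log2 fold change was 0.51 (SE 0.11, 95% interval 0.28 to 0.74, unadjusted p = 0.000107). Means were 305 ± 27.1 in vehicle (SD, n = 4), 435 ± 61.4 at 0.1 mg/kg (SD, n = 5), 297 ± 34.9 at 1 mg/kg (SD, n = 6) and 303 ± 20.7 at 6 mg/kg (SD, n = 6), so 0.1 mg/kg stood above the other 3 groups. Leaving out each of the 9 libraries in turn gave a log2 fold change between 0.46 and 0.57.

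Some partners of BiP in ER folding were also higher at the unadjusted threshold. Hsp90b1, the ER member of the HSP90 family, was at 299, 305, 271 and 287 CPM in vehicle and 329, 338, 381, 400.1 and 414 CPM at 0.1 mg/kg, without overlap (log2 fold change 0.36, SE 0.12, unadjusted p = 0.00618). Calr, the calcium-binding lectin chaperone calreticulin, was at 314, 313, 328 and 345 CPM and 367, 362, 429, 385 and 475 CPM, again without overlap (0.31, SE 0.11, unadjusted p = 0.00898). In both genes the 3 highest libraries were animals 25, 28 and 29. Pdia6, a disulfide isomerase, was at 103, 106, 119 and 133 CPM in vehicle and 126, 128, 167, 154 and 157 CPM at 0.1 mg/kg (0.34, SE 0.10, unadjusted p = 0.00248). Here vehicle animal 8 lay above animals 23 and 24, so the groups overlapped. Creld2, a secreted ER stress-inducible protein, was at 14.5, 17.7, 18.4 and 17.5 CPM and 20.2, 19.9, 24.1, 29.8 and 28.6 CPM with no overlap (0.53, SE 0.18, unadjusted p = 0.00849).

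The other ER members that passed the unadjusted threshold overlapped between the groups. Pdia4, another disulfide isomerase, spanned 33.5 to 43.9 CPM in vehicle and 42.8 to 64.7 CPM at 0.1 mg/kg (0.39, unadjusted p = 0.0108). Sdf2l1, a component of the ER chaperone complex, spanned 10.4 to 16.6 and 12.7 to 22.9 CPM (0.48, unadjusted p = 0.0277). Herpud1, which serves degradation of ER proteins, spanned 58.9 to 64.01 and 62.3 to 92.3 CPM (0.24, unadjusted p = 0.0327), and Xbp1, the transcription factor activated by the sensor IRE1, spanned 99.9 to 120.3 and 116 to 139 CPM (0.21, unadjusted p = 0.0272). The ER members that did not pass were Manf, a secreted ER stress protein (0.19, unadjusted p = 0.182), Dnajb9, a BiP co-chaperone (0.065, unadjusted p = 0.597), and the genes of the PERK branch. These were Atf4, its transcription factor (0.077, unadjusted p = 0.531), and its targets Ddit3, which encodes CHOP (0.0075, unadjusted p = 0.964), and Trib3 (0.28, unadjusted p = 0.493), the last at only 7 to 18 counts per vehicle library and 4 to 25 counts per 0.1 mg/kg library. Without a library the log2 fold change of Trib3 ran from -0.013 to 0.65.

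**Figure D2:**
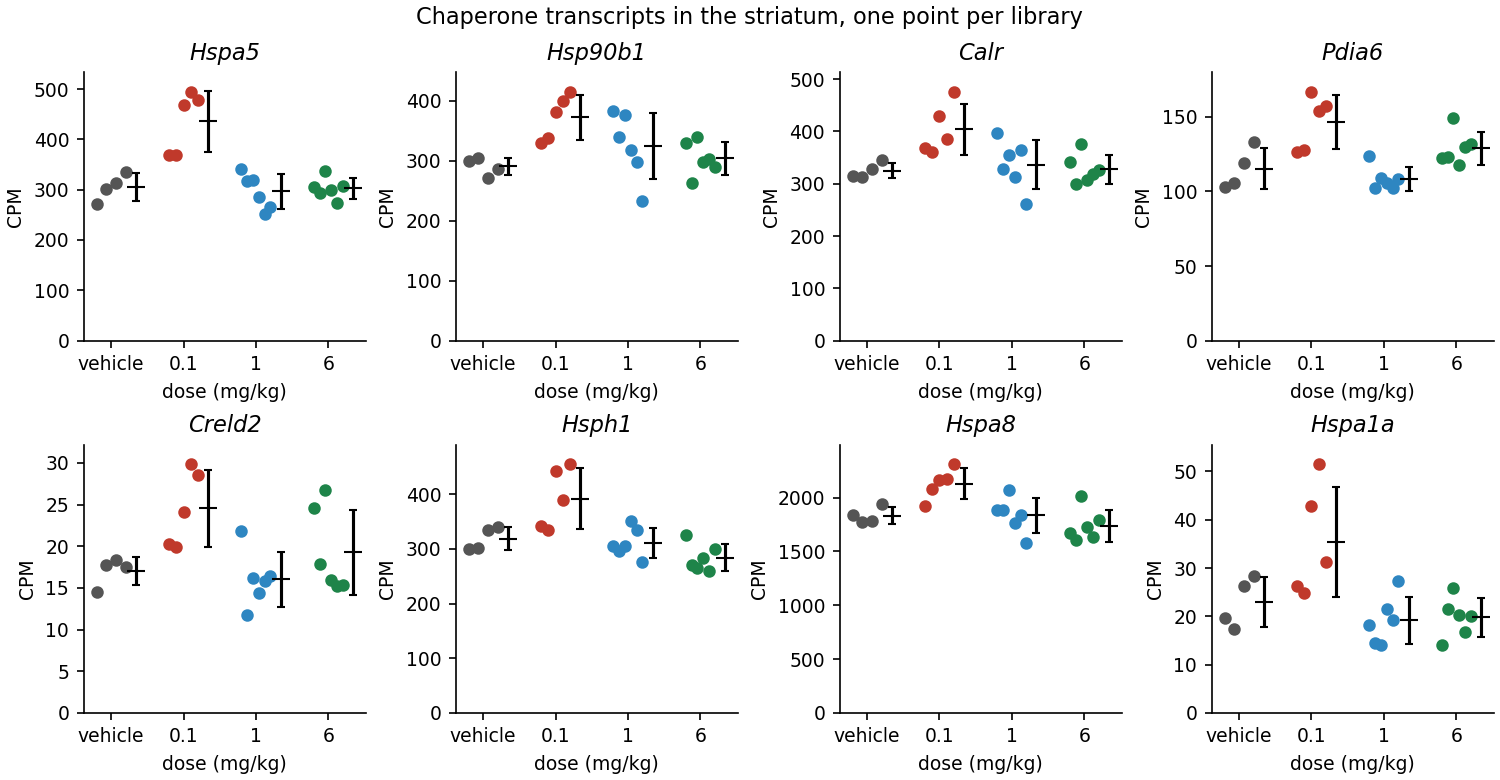
CPM of 8 chaperone genes in each striatum library by dose, with points for libraries and, beside them, the mean and SD of each group. For Hspa5 the 5 libraries at 0.1 mg/kg (368 to 494 CPM) lay above the 4 vehicle libraries (271 to 336 CPM), and the group means at 1 and 6 mg/kg were 297 and 303 CPM.

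Several ER chaperone genes are known to be induced through the ER stress response element, a pair of boxes read by the factors NF-Y and ATF6, written here as CCAAT, 9 bases of any kind and CCACG, and searched on both strands. In RefSeq promoter windows of 300 bases (250 before to 50 after each start, GRCm38.p6), it was found for 37 of 27025 genes (0.137%). Of the 18 list members with a window, 5 held it (27.8%), and all 5 were among the 9 ER members that passed the unadjusted threshold. The list was chosen for the unfolded protein and heat shock responses, and 9 of its 14 ER members passed, so these shares describe the list only. Whether the element had a part in the difference was not tested. Hspa8 and Manf had no window. On 5 longer lists that share members with this one, it was found for 7 of 20 ER lumenal chaperones (35%) and 2 of 15 genes of ER-associated degradation (13.3%), and for none of 22 genes of translocation and glycosylation, 17 sensors and factors or 13 cytosolic heat shock genes. Its CCAAT box alone was present for 41.1% of all genes in the table and for 15 of the 18 list members (83.3%). The upstream stretches that hold the element are shown 5′ to 3′ on the gene's strand, with the element in capitals, because their genes are those with the 5 smallest p among the ER members of the list. For Hspa5 only 30 bases are shown, since the GENCODE vM21 annotation places an exon of the gene there. The shown stretches are chr2:34772020-34772049 (+ strand) for Hspa5, chr10:86705510-86705694 (− strand) for Hsp90b1, chr12:17266339-17266544 (+ strand) for Pdia6, chr15:88819396-88819645 (+ strand) for Creld2 and chr8:84846935-84847181 (− strand) for Calr.
Hspa5: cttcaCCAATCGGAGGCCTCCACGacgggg
Hsp90b1: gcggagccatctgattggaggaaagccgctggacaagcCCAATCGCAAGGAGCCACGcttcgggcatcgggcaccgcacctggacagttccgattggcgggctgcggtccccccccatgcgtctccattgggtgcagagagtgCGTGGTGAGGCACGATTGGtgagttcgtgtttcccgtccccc
Pdia6: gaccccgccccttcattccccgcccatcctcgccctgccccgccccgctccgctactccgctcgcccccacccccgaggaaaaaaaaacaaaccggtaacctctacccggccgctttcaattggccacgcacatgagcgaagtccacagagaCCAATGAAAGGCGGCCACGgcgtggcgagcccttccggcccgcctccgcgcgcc
Creld2: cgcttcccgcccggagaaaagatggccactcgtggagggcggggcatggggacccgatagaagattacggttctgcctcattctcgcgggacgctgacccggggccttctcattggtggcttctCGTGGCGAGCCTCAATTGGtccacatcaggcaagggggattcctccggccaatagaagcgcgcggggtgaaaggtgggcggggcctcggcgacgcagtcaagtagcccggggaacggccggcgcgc
Calr: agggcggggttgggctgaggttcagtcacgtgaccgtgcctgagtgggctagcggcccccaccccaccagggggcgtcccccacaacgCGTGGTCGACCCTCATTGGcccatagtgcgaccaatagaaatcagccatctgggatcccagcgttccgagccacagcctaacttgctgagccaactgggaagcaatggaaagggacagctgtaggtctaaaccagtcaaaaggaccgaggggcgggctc
Counted from the RefSeq start, the element lay at -65 to -47 in Hspa5 and -98 to -80 in Pdia6, on the gene's own strand. Hsp90b1 held it at -212 to -194 on its own strand and again at -107 to -89 on the opposite strand, and Creld2 (-126 to -108) and Calr (-162 to -144) held it on the opposite strand. These are matches of letters, not measured binding sites. The heat shock element in the form GAA, TTC and GAA with 2 bases of any kind between them, read on both strands, was found for 179 of the 27025 genes (0.662%) and, in the list, for Hsph1 alone (1 of 18, 5.56%). On the longer lists it was found for 3 of the 13 cytosolic and organelle heat shock genes (23.1%), 1 of the 22 genes of translocation and glycosylation (4.55%), 1 of the 15 of ER-associated degradation (6.67%) and none of the other two lists.

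The cytosolic members that passed the unadjusted threshold were 4. Hspa1a and Hspa1b encode the stress-inducible HSP70 and are near-identical copies, so the division of reads between them is uncertain. They are thus not separate evidence in any count of list members. Hspa1a was at 19.6, 17.4, 26.4 and 28.3 CPM in vehicle and 26.3, 24.8, 42.8, 51.5 and 31.2 CPM at 0.1 mg/kg (0.62, SE 0.22, unadjusted p = 0.0105), and Hspa1b at 13.9, 16.2, 25.2 and 26.5 CPM and 20.04, 20.98, 38.97, 52.8 and 28.003 CPM (0.65, SE 0.30, unadjusted p = 0.0408). Both were highest in animals 25 and 28, and both overlapped with vehicle. Hsph1, the HSP110 nucleotide exchange factor, was at 299, 302, 334 and 339.9 CPM and 341, 334, 442, 389 and 455 CPM (0.30, SE 0.10, unadjusted p = 0.00863), with animal 24 below vehicle animals 7 and 8. Hspa8, the constitutive HSC70, was at 1842, 1770.1, 1779 and 1942 CPM and 1920.4, 2080.0, 2163, 2173 and 2308 CPM (0.22, SE 0.091, unadjusted p = 0.0256), with overlap through vehicle animal 8 and animal 23. Dnajb1, an HSP40 co-chaperone, was at 0.19 (unadjusted p = 0.121) and the small heat shock protein gene Hspb1 at 0.28 (unadjusted p = 0.234).

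The chaperone list was highest in 3 of the 5 dosed animals. The mean log2 difference of the 20 members from the vehicle mean was 0.37 in animal 25, 0.58 in animal 28 and 0.42 in animal 29, with 18, 20 and 18 of the 20 members above the vehicle mean. It was 0.0017 in animal 23 and 0.11 in animal 24, within the range of the 4 vehicle animals (-0.12 to 0.16). Animal 28 also held the highest hypothalamic and choroid plexus markers, and without it 10 of the 20 members were higher at an unadjusted p under 0.05, beside 0.948% of all genes in that fit. Without animal 29 the count was likewise 10 (1.02% of all genes), and it was 9 without vehicle animal 3 (1.59%) and 9 without vehicle animal 4 (1.995%). Without vehicle animal 8, which had the highest cortical markers, the count was 13 (0.774%), and over all 9 libraries left out in turn it ran from 9 to 14. Of the 13 members, 8 stayed under the threshold in all 9 of these fits: Hspa5, Hsp90b1, Calr, Pdia6, Creld2, Pdia4, Hspa1a and Hsph1. Herpud1 and Hspa8 were under it in 6 and Hspa1b, Sdf2l1 and Xbp1 in 5. The part of tissue composition in the difference was otherwise not tested.

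The prefrontal cortex punches of the same-numbered animals were measured in separate libraries. With the number taken as the mouse, they are a second reading of the same animals and not a replication. There, 13 of the 20 list members were higher at 0.1 mg/kg at an unadjusted p under 0.05, against 3.40% of all 14838 genes tested (10 of 14 ER and 3 of 6 cytosolic members), with a median log2 fold change of 0.32. Hspa5 in prefrontal cortex was at 222, 248, 250.4 and 329.7 CPM in vehicle and 308, 331, 414, 447 and 414 CPM at 0.1 mg/kg, with a log2 fold change of 0.54 (SE 0.12, unadjusted p = 0.000127, edgeR adjusted p = 0.584). Vehicle animal 8 lay above animal 23 there, so the groups overlapped. The mean list differences by animal were 0.035 in animal 23, 0.25 in animal 24, 0.43 in animal 25, 0.57 in animal 28 and 0.41 in animal 29, so that animal 23 was lowest and animal 28 highest in both regions. Manf, which did not pass in striatum, was higher in prefrontal cortex by 0.49 (unadjusted p = 6.50e-05), and so was Atf4 by 0.35 (unadjusted p = 0.00435). With the counts of both regions added for each animal, 15 of the 20 members were higher, against 2.52% of all 15816 genes, 741 genes (4.69%) were past an unadjusted p of 0.05 in either direction, and no gene passed the adjustment (Hspa5 log2 fold change 0.53, edgeR adjusted p = 0.476).

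**Figure D3:**
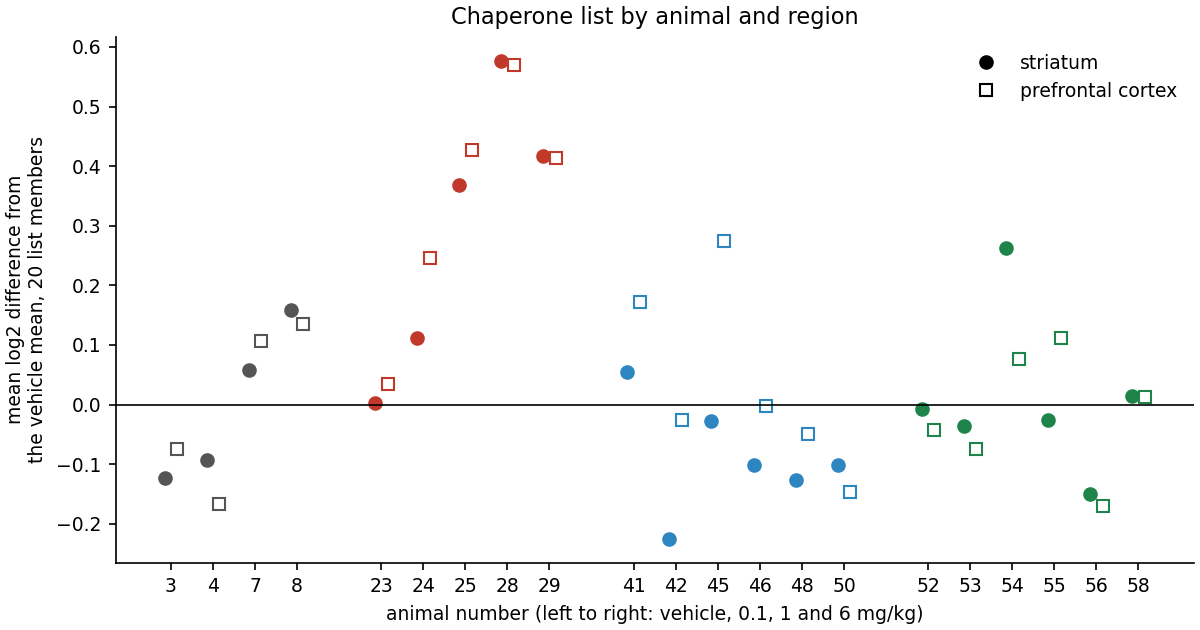
Mean log2 difference of the 20 list members from the vehicle mean for each animal (x axis, by dose), with filled circles for striatum and open squares for prefrontal cortex. Animals 25, 28 and 29 at 0.1 mg/kg lay at 0.37 to 0.58 in striatum, above every vehicle animal, while animals 23 and 24 lay within the vehicle range.

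**Figure D4:**
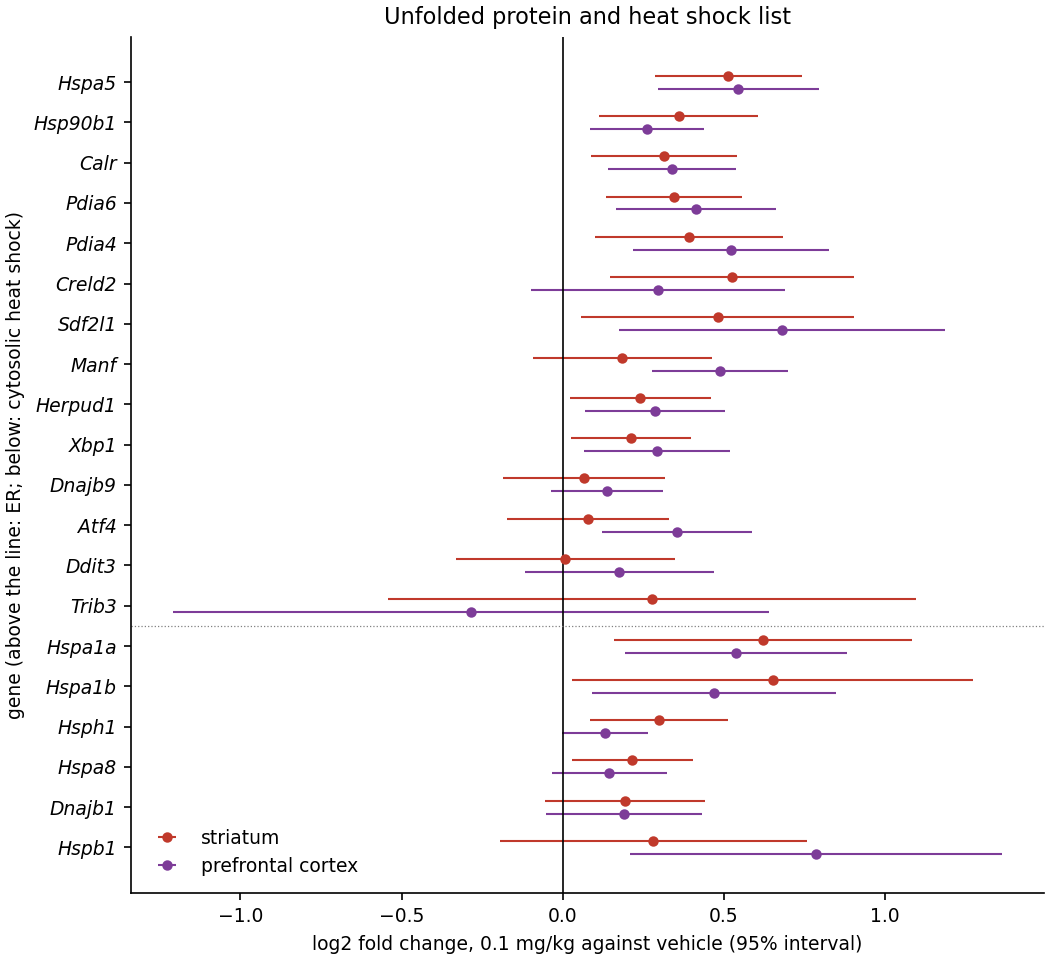
Log2 fold changes of the 20 list members at 0.1 mg/kg against vehicle, with 95% intervals, in striatum and prefrontal cortex. In striatum all 20 lay above 0, led by Hspa1b (0.65), Hspa1a (0.62), Creld2 (0.53) and Hspa5 (0.51), and the interval excluded 0 for 13 of them.

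The broader machinery was described with 5 further lists, which were made after the chaperone values had been seen. Of 23 tested ER lumenal chaperones and co-chaperones, 9 were higher and none lower (median log2 fold change 0.23), where 1.23% of all genes were higher. The members outside the first list were Pdia3, a disulfide isomerase (184, 197, 168 and 183 CPM in vehicle, 197, 212, 242, 243 and 227 CPM at 0.1 mg/kg, 0.29, unadjusted p = 0.00798), and Dnajb11, a BiP co-chaperone (0.26, unadjusted p = 0.0381). Of 18 tested cytosolic and organelle heat shock genes, 6 were higher (median 0.21), with Dnaja1, an HSP40 protein (0.21, unadjusted p = 0.0268), and Hspd1, the mitochondrial HSP60 (0.24, unadjusted p = 0.0390), beside the 4 above. Without animal 28 the count of higher members was 8 for the lumenal and 4 for the heat shock list, beside 0.948% of all genes in that fit. Without animal 29 it was 7 and 3, beside 1.02%. With a library left out, Pdia3 stayed under 0.05 in all 9 fits, Dnaja1 in 7, Hspd1 in 4 and Dnajb11 in 3. Beside the same 1.23% of all genes, 1 of 26 genes of ER translocation and glycosylation was higher (median 0.067), 2 of 18 of ER-associated degradation (median 0.045; Herpud1 and Derl2, at 0.24) and 1 of 20 sensors and factors of the unfolded protein response (median 0.025; Xbp1). Of the 3 stress sensors, Ern1 (IRE1) was at -0.021, Eif2ak3 (PERK) at 0.077 and Atf6 at 0.032, with unadjusted p of 0.919, 0.470 and 0.847. None of these 5 lists held a member that was lower at an unadjusted p under 0.05.

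Chaperone levels at 0.1 mg/kg were also set against the 2 higher doses, using the same 0.1 mg/kg libraries. At 1 mg/kg 14 of the 20 members were lower than at 0.1 mg/kg, against 3.86% of all genes, and at 6 mg/kg 14 were lower, against 10.7% of all genes, with no member higher in either (5.79% of all genes were higher at 1 and 11.6% at 6 than at 0.1 mg/kg). The median log2 differences were -0.39 and -0.29. At 6 mg/kg, 4 members passed the edgeR adjusted p of 0.05, beside 2.91% of all genes: Hspa5 (log2 difference -0.53, adjusted p = 0.0270), Hsph1 (log2 difference -0.47, adjusted p = 0.0270), and the near-identical copies Hspa1a (log2 difference -0.84, adjusted p = 0.0355) and Hspa1b (log2 difference -1.10, adjusted p = 0.0365). With DESeq2 8 members passed, with 1 surrogate variable 9, and under the other scalings, filters and offset 4 to 6. Over all genes 440 passed in the main fit and 52 with the offset. The DESeq2 and surrogate variable fits passed more genes than the main fit, in numbers given in the last section. Hspa5 and Hsph1 each passed in 9 of the 11 fits that left out a library of these 2 groups, Hspa1a in 3 and Hspa1b in 1, and no member passed without animal 25 or without animal 29 (Hspa5 edgeR adjusted p of 0.0531 and 0.0909). At 1 mg/kg no member passed, with Hspa5 at -0.55 (unadjusted p = 9.75e-06, edgeR adjusted p = 0.0595), but this depended on the fit. With DESeq2 8 members passed (Hspa5 adjusted p = 0.00013), with the GC and length offset 6 (Hspa5 0.0239) and with 1 surrogate variable Hspa5 alone (0.0107), and Hspa5 passed in 2 of the 11 fits that left out a library, with edgeR adjusted p of 0.0458 without animal 24 and 0.0339 without animal 41 of the 1 mg/kg group. Over all genes 42 passed with the offset, beside 1 in the main fit. DESeq2 and the surrogate variable also passed more genes than the main fit, in numbers given in the last section. Against vehicle, the list medians were -0.053 at 1 mg/kg and 0.00042 at 6 mg/kg, beside 0.29 at 0.1 mg/kg, and these comparisons share the same vehicle libraries.

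Over all genes, 440 of 15118 (2.91%) passed the edgeR adjusted p of 0.05 between 6 and 0.1 mg/kg, 251 higher and 189 lower at 6 mg/kg. This count rested on single libraries: it was 0 without animal 29, 9 without animal 23, 12 without animal 25 and 42 without animal 24 of the 0.1 mg/kg group, 442 without animal 28, and from 47 to 412 without a 6 mg/kg library. When GC content and length entered the fit as an offset it was 52, of which 32 were among the 440. The 5 genes with the smallest p that were higher at 6 mg/kg were Srsf5, a splicing factor (log2 difference 0.55, adjusted p = 0.0172), Rab34, a small GTPase (log2 difference 0.68, adjusted p = 0.0172), Slc27a1, a fatty acid transporter (log2 difference 0.57, adjusted p = 0.0172), Thap3 (log2 difference 0.76, adjusted p = 0.0172) and Iqce (log2 difference 0.47, adjusted p = 0.0270). Srsf5 was at 126, 116, 124, 113 and 115 CPM at 0.1 mg/kg, 132, 126, 138 and 124 CPM in vehicle and on average 174 ± 20.9 CPM at 6 mg/kg (SD, n = 6), so its 0.1 mg/kg libraries reached below vehicle. The lower ones beside Hspa5 were Top1, DNA topoisomerase I (log2 difference -0.54, adjusted p = 0.0172), Naa50, an N-terminal acetyltransferase (log2 difference -0.41, adjusted p = 0.0206), Ppig, a nuclear cyclophilin (log2 difference -0.61, adjusted p = 0.0209), and Ranbp2, a nuclear pore protein (log2 difference -0.71, adjusted p = 0.0270). Against vehicle at 0.1 mg/kg these 9 genes had log2 fold changes from -0.34 (Thap3) to 0.20 (Ranbp2), and only Thap3 (unadjusted p = 0.0261) and Naa50 (unadjusted p = 0.0483) had an unadjusted p under 0.05, which they kept in 5 and 2 of the 9 fits that left out a library of these 2 groups.

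Between 1 and 0.1 mg/kg, 1 gene passed (0.00661%). It was Slc25a25, a mitochondrial ATP-Mg/phosphate carrier, lower at 1 mg/kg by 0.46 on the log2 scale (SE 0.075, edgeR adjusted p = 0.0409). Its level was 119, 109, 116, 114 and 113 CPM at 0.1 mg/kg, 108, 101, 116 and 108 CPM in vehicle and on average 82.8 ± 8.12 CPM at 1 mg/kg (SD, n = 6), and 0.1 mg/kg and vehicle overlapped (log2 fold change 0.071, unadjusted p = 0.403). The number of genes that passed was 0 in 8 of the 11 fits that each left out a library of these 2 groups. Srsf5 (log2 difference 0.49, adjusted p = 0.0595) and the potassium channel gene Kcnj3 (log2 difference 0.66, adjusted p = 0.0754) were higher at 1 mg/kg with adjusted p above the threshold.

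Outside the chaperones, the genes with the smallest p in the higher direction were of mixed function. Zdhhc14, a palmitoyltransferase, was at 59.7, 51.8, 73.6 and 59.6 CPM in vehicle and 86.6, 90.6, 76.1, 77.4 and 88.8 CPM at 0.1 mg/kg, with no overlap (0.46, SE 0.12, unadjusted p = 0.000800). Urod, the fifth enzyme of haem synthesis and the enzyme blocked in porphyria caused by some chlorinated aromatics, was at 36.4, 33.5, 31.1 and 30.9 CPM and 40.3, 43.99, 40.4, 46.7 and 41.5 CPM, with no overlap (0.37, SE 0.10, unadjusted p = 0.00163). Gpr176, an orphan receptor, was at 16.3, 13.1, 16.1 and 15.7 CPM and 21.2, 19.8, 21.9, 17.95 and 18.2 CPM (0.37, SE 0.11, unadjusted p = 0.00170), and it was also lower at 6 than at 0.1 mg/kg by 0.44 on the log2 scale (edgeR adjusted p = 0.0300, but 0.0909 without animal 29, and passing in 5 of the 11 fits with a library left out). Sdc4, a heparan sulfate proteoglycan, was at 43.8, 58.9, 56.4 and 44.6 CPM and 64.03, 66.05, 61.7, 82.7 and 67.8 CPM, with animal 28 far above the others (0.43, SE 0.12, unadjusted p = 0.00215). In all 4 genes every dosed library lay above every vehicle library, which held for 0.807% of all genes. They were picked by p from these same libraries, so the lack of overlap is not separate evidence. The differences were of the size seen for the chaperones. Between the regions only Gpr176 of the 4 differed at an unadjusted p under 0.05 (log2 difference 0.51, larger in striatum, edgeR unadjusted p = 0.00818), beside 1.27% of all genes.

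The remaining higher genes were near the limit of detection or low. Wif1, a secreted Wnt inhibitor, had 3, 4, 3 and 1 counts in vehicle and 12, 11, 11, 5 and 7 counts at 0.1 mg/kg (log2 fold change 1.76, unadjusted p = 0.00109). Galr2, a galanin receptor, had 7, 3, 5 and 6 and 13, 13, 15, 9 and 15 counts (1.34, unadjusted p = 0.00187). The counts are small and the fitted values depend on the prior count. No vehicle library of either gene reached the 1.07 CPM that the expression filter asks of 4 libraries, while 3 libraries at 0.1 mg/kg did for Wif1 and 4 for Galr2. Wif1 was not tested when animal 23, 24 or 25 was left out. Both genes were thus tested through the libraries in which they were high, so their p and the lack of overlap support nothing. Kif4, a chromosome-associated kinesin, was at 3.19 to 5.16 CPM in vehicle and 5.70 to 7.62 CPM at 0.1 mg/kg (0.63, unadjusted p = 0.00257), and Fdxacb1 at 4.45 to 5.54 and 5.98 to 8.18 CPM (0.52, unadjusted p = 0.00324).

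**Figure D5:**
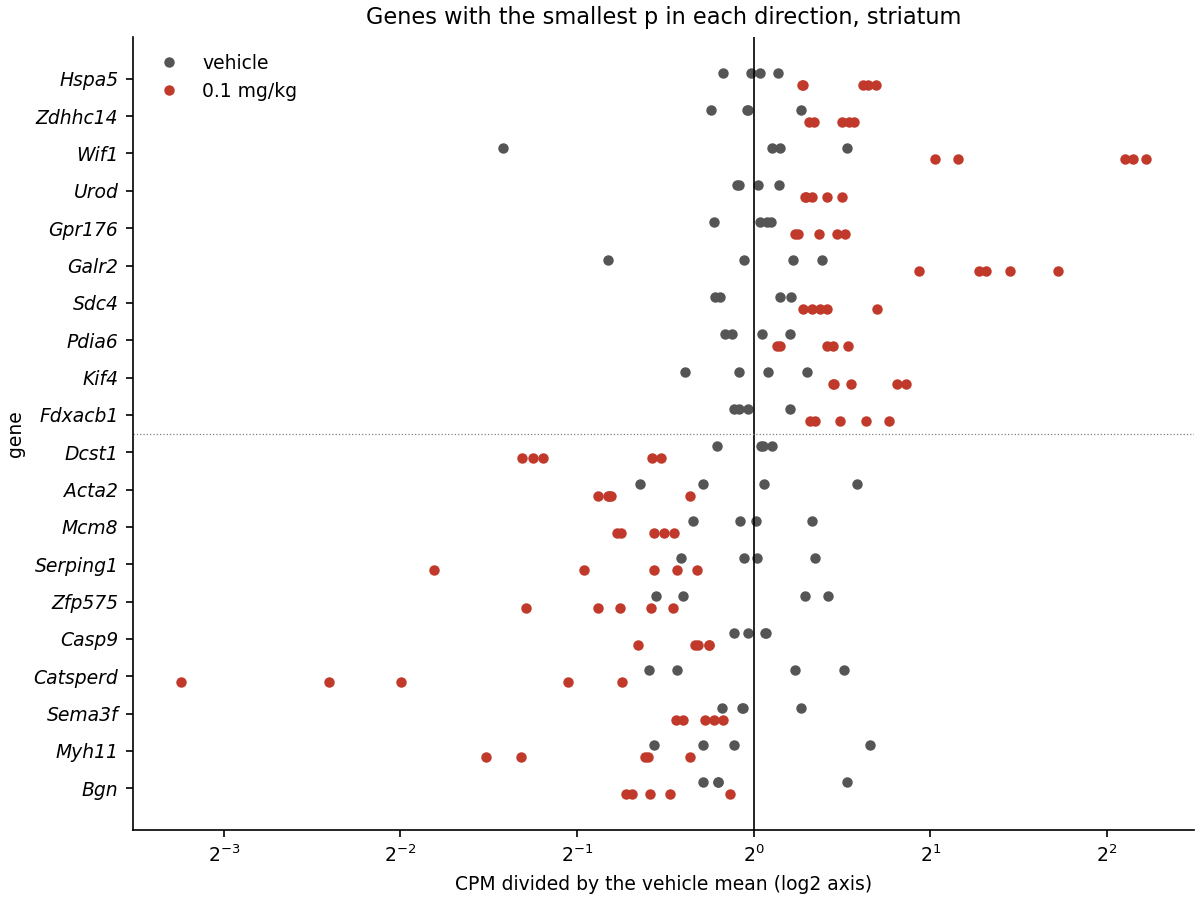
CPM of each vehicle and 0.1 mg/kg striatum library divided by the vehicle mean (log2 axis) for the 10 genes of smallest p that were higher and the 10 that were lower, higher above the dotted line and lower below it. For Hspa5, Zdhhc14 and Urod every dosed library lay above every vehicle library, while Acta2, Myh11 and Bgn overlapped with vehicle and had 1 vehicle library, animal 8, far to the right.

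Among the genes with the smallest p in the lower direction were smooth muscle and vessel wall genes. Acta2, smooth muscle actin, was at 24.1, 18.98, 14.8 and 34.8 CPM in vehicle and 12.6, 18.1, 13.2, 13.1 and 13.1 CPM at 0.1 mg/kg (-0.73, SE 0.21, unadjusted p = 0.00186). Myh11, smooth muscle myosin, was at 13.3, 11.8, 9.68 and 22.6 CPM and 9.35, 9.47, 5.76, 5.01 and 11.2 CPM (-0.81, SE 0.26, unadjusted p = 0.00467), and Bgn, the matrix proteoglycan biglycan, at 15.1, 14.3, 15.1 and 25.03 CPM and 11.5, 15.8, 10.5, 10.8 and 12.5 CPM (-0.50, SE 0.16, unadjusted p = 0.00539). Vehicle animal 8 was the highest library for all 3 genes, and the groups overlapped. Without animal 8 the log2 fold change was -0.46 for Acta2 (unadjusted p = 0.0274), -0.50 for Myh11 (unadjusted p = 0.0591) and -0.28 for Bgn (unadjusted p = 0.0795). The effect in striatum minus that in prefrontal cortex was -0.73 for Acta2, -0.63 for Bgn and -0.61 for Myh11 on the log2 scale. The edgeR unadjusted p of that difference were 0.0377, 0.0385 and 0.106, beside 2.30% of all genes with a smaller effect in striatum. In bulk tissue, fewer cells of a type and less RNA per cell cannot be told apart.

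The listed markers of endothelial and mural cells were also lower in sum. Of 12 markers, 11 had a negative log2 fold change (median -0.22), 3 were lower at an unadjusted p under 0.05, against 1.30% of all genes, and 1 was higher. The lower ones beside Acta2 were the pericyte receptor gene Pdgfrb (28.2, 23.9, 27.4 and 29.1 CPM in vehicle, 22.2, 24.4, 21.9, 20.02 and 24.9 CPM at 0.1 mg/kg, -0.26, unadjusted p = 0.0426) and the endothelial gene Pecam1 (-0.23, unadjusted p = 0.0487). The higher one was Ly6c1, an endothelial surface protein (21.7, 26.2, 27.3 and 27.02 CPM and 27.2, 34.96, 32.2, 31.1 and 38.05 CPM, 0.36, unadjusted p = 0.00974), so the list was not uniform. The 12 markers summed to 447.8, 400.0, 401 and 451 CPM in vehicle and to 356, 399, 379.7, 377 and 394 CPM at 0.1 mg/kg, a small difference without overlap. The gap was narrow, between 398.5 CPM in animal 24 and 400.0 CPM in vehicle animal 4. At 1 mg/kg the sum ran from 385 to 468 CPM and at 6 mg/kg from 407 to 464 CPM. Of 6 meningeal fibroblast markers, 2 were lower: Dcn, the proteoglycan decorin (-0.57, unadjusted p = 0.00688), and Slc6a13, a GABA transporter of the meninges (-0.70, unadjusted p = 0.0410). Without vehicle animal 8, 1 of 12 and 1 of 6 markers of these 2 lists were lower, beside 0.695% of all genes in that fit. Acta2 and Dcn stayed under 0.05 in all 9 fits that left out a library, while Slc6a13 did so in 4 (p up to 0.334), Pdgfrb in 3 (p up to 0.108) and Pecam1 in 2 (p up to 0.132). Pdgfrb was higher at 6 than at 0.1 mg/kg (log2 difference 0.47, edgeR adjusted p = 0.0345), which held in 5 of the 11 fits with a library left out and not without animal 29 (adjusted p = 0.0909).

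The other lower genes had no shared list. Dcst1, which encodes a multi-pass membrane protein, had the smallest p of the lower genes, with 75, 75, 61 and 75 counts in vehicle and 49, 45, 26, 28 and 33 counts at 0.1 mg/kg (-0.93, SE 0.21, unadjusted p = 0.000148), and no overlap. It was also higher at 6 than at 0.1 mg/kg (log2 difference 0.73, edgeR adjusted p = 0.0407), which held in 1 of the 11 fits with a library left out and not without animal 29 (adjusted p = 0.141). Casp9, the initiator caspase of the mitochondrial death pathway, was at 21.98, 23.2, 24.9 and 24.7 CPM and 19.8, 19.04, 15.02, 19.9 and 18.8 CPM, without overlap (-0.35, SE 0.11, unadjusted p = 0.00435). Mcm8, a helicase of DNA repair, was at 5.14 to 8.19 and 3.81 to 4.77 CPM (-0.60, unadjusted p = 0.00305), and Serping1, the complement C1 inhibitor, at 6.78 to 11.5 and 2.58 to 7.23 CPM (-0.73, unadjusted p = 0.00384). Sema3f, an axon guidance factor, differed by -0.30 (unadjusted p = 0.00464), the zinc finger gene Zfp575 by -0.76 (unadjusted p = 0.00393) and the sperm channel subunit gene Catsperd, with 6 to 13 counts per vehicle library, by -1.62 (unadjusted p = 0.00440). For Catsperd 2 vehicle libraries and none at 0.1 mg/kg reached the expression filter's 1.07 CPM, so its p likewise supports nothing. Sema3f and Zfp575 were both higher at 6 than at 0.1 mg/kg (edgeR adjusted p of 0.0355 and 0.0279, and 0.126 and 0.0909 without animal 29).

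Markers of the striatal neurons themselves did not separate the groups. None of the 8 tested D1 neuron markers, 5 D2 neuron markers, 18 general projection neuron markers, 8 striosome and matrix markers or 14 interneuron markers passed an unadjusted p of 0.05, and the list medians ran from -0.093 to 0.051. The projection neuron median moved with single libraries, to -0.12 with 4 of 18 members positive without vehicle animal 8 and to 0.16 with 17 of 18 positive without animal 28. In the same 2 fits the D2 median was -0.19 with 0 of 5 positive and 0.0053 with 3 of 5 positive. Without vehicle animal 8, Id4 was lower (-0.28, unadjusted p = 0.0115) and Vip higher (0.94, unadjusted p = 0.0463), beside 0.695% of all genes lower and 0.774% higher. The members with the smallest p were Sfxn1 (0.12, unadjusted p = 0.157) and Ebf1 (0.27, unadjusted p = 0.280) of the D1 list, Sp9 (-0.049) and Gpr6 (-0.088) of the D2 list, and Ptpn5 (0.12) and Gnal (0.12) of the general list. In the striosome and matrix list they were Id4 (-0.18, unadjusted p = 0.102) and the mu opioid receptor gene Oprm1 (-0.58, unadjusted p = 0.132), and among interneuron genes the peptides Vip (0.54, unadjusted p = 0.207) and Npy (-0.18, unadjusted p = 0.402). Drd1, the D1 dopamine receptor, was at 192, 129, 196 and 111 CPM in vehicle and 165, 186, 124, 110.2 and 210.3 CPM at 0.1 mg/kg (0.019, 95% interval -0.49 to 0.52). Drd2, the D2 receptor, was at 228, 139, 285 and 116 CPM and 205, 261, 133, 124 and 232 CPM (-0.0070, 95% interval -0.54 to 0.53). In both genes the vehicle animals 3 and 7 stood above animals 4 and 8, and the dosed animals 25 and 28 below the rest, so the spread within each group was wider than the difference. The neuropeptide genes behaved alike: Penk (enkephalin) was at 0.081, Tac1 (substance P) at 0.15 and Pdyn (dynorphin) at -0.022, with unadjusted p of 0.723, 0.548 and 0.921. Ppp1r1b was at -0.14 (unadjusted p = 0.565), and Chat, the enzyme of acetylcholine synthesis in the interneurons, at 0.034 (unadjusted p = 0.870).

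Of 16 tested genes of monoamine synthesis, transport and receptors none passed the unadjusted threshold. Th, the rate-limiting enzyme of dopamine synthesis, was at 9.56, 12.3, 11.7 and 7.88 CPM in vehicle and 14.1, 8.61, 16.9, 20.6 and 12.001 CPM at 0.1 mg/kg (0.48, unadjusted p = 0.0627), and Ddc, the next enzyme, at 0.41 (unadjusted p = 0.0972). Both were highest in animal 28, the library with the highest hypothalamic markers, and without it they were at 0.32 (unadjusted p = 0.210) and 0.21 (unadjusted p = 0.364). Without animal 29 both were under 0.05 (unadjusted p of 0.0482 and 0.0399), and over the 9 fits that left out a library Th was under 0.05 in 3 and Ddc in 2. Of 13 neuropeptide genes 1 was higher, against 1.23% of all genes, Crh, corticotropin-releasing hormone (9.65, 8.96, 8.40 and 7.88 CPM and 12.1, 11.8, 14.3, 11.97 and 9.28 CPM, 0.45, unadjusted p = 0.0378), with overlap through animal 29. It stayed under 0.05 in 2 of the 9 fits that left out a library, and the unadjusted p reached 0.0991 without animal 25. Nts, neurotensin, was at 0.51 (unadjusted p = 0.0950), with animals 25 and 29 far above the rest and animal 24 below all vehicle libraries.

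Pathways linked to PCBs held 1 gene past the unadjusted threshold. Among 28 genes of the ryanodine receptor and store calcium none passed, and the log2 fold changes ran from -0.25 to 0.22, with Ryr1 at -0.063, Ryr2 at -0.17 and Ryr3 at 0.012 (95% intervals -0.58 to 0.46, -0.58 to 0.23 and -0.42 to 0.45). The smallest p of this list were those of the calcium channel gene Cacna1d (-0.20, unadjusted p = 0.166) and the scaffold gene Homer1 (0.22, unadjusted p = 0.202). Among 21 tested thyroid hormone genes none passed, with the receptor Thrb at 0.040, the activating deiodinase Dio2 at 0.21 and the target genes Hr and Klf9 at -0.15 and 0.066. Dio2 was lower at 6 than at 0.1 mg/kg by 0.80 on the log2 scale (edgeR adjusted p = 0.0355), a call that held in 4 of the 11 fits with a library left out and not without animal 29 (adjusted p = 0.127). Of 22 tested xenobiotic response genes 1 was lower, against 1.30% of all genes, the glucuronosyltransferase gene Ugt1a6a (1.91, 1.35, 1.68 and 0.897 CPM and 0.668, 0.968, 0.226, 0.653 and 0.766 CPM, -1.13, unadjusted p = 0.0145), at low levels and with overlap, and its unadjusted p was 0.0512 without vehicle animal 3. No library at 0.1 mg/kg reached the expression filter's 1.07 CPM for Ugt1a6a, while 3 vehicle libraries did. The next was the efflux transporter gene Abcc4 (-0.21, unadjusted p = 0.150). Ahr, the aryl hydrocarbon receptor, was at -0.22 and its target Cyp1b1 at -0.0027 (95% intervals -0.67 to 0.23 and -0.58 to 0.57). None of 19 GABA or 21 glutamate receptor and scaffold genes passed. The smallest p of each list was that of Dlgap1, a postsynaptic scaffold (-0.34, unadjusted p = 0.0972), and Gabra5, a GABA-A receptor subunit (-0.20, unadjusted p = 0.105). Both were highest in vehicle animal 8. The next were Shank1, another scaffold (-0.39, unadjusted p = 0.161), and Gabbr2, a GABA-B receptor subunit (-0.28, unadjusted p = 0.161). Without vehicle animal 8 the log2 fold changes were -0.11 for Dlgap1, -0.097 for Gabra5, -0.11 for Shank1 and -0.067 for Gabbr2.

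A few genes of hormone, redox and timing lists passed the unadjusted threshold singly. Of 10 tested steroid receptors and targets 2 were higher, against 1.23% of all genes, both glucocorticoid-induced genes. Tsc22d3, which encodes GILZ, was at 66.6, 90.2, 72.5 and 58.03 CPM in vehicle and 76.2, 98.4, 88.6, 112 and 94.1 CPM at 0.1 mg/kg (0.38, unadjusted p = 0.0144), and Fkbp5, a receptor co-chaperone, at 41.2, 39.98, 49.6 and 40.9 CPM and 46.2, 65.4, 46.2, 44.4 and 81.2 CPM (0.40, unadjusted p = 0.0298). Fkbp5 was high in animals 24 and 29 and near vehicle in the other 3, and its unadjusted p was 0.155 without animal 29 and under 0.05 in 4 of the 9 fits that left out a library. Without vehicle animal 8 the unadjusted p was 0.0677 for Tsc22d3 and 0.0628 for Fkbp5. Tsc22d3 was lower at 6 than at 0.1 mg/kg (log2 difference -0.53, edgeR adjusted p = 0.0360), which held in 1 of the 11 fits with a library left out and not without animal 29 (adjusted p = 0.121). Of 18 clock genes Cry1, a repressor of the clock, was higher without overlap (28.6, 26.7, 31.8 and 25.2 CPM and 36.3, 32.2, 33.1, 32.3 and 34.8 CPM, 0.27, unadjusted p = 0.0175), while Arntl (BMAL1) was at 0.23 and its output gene Dbp at -0.11. Without vehicle animal 8 the unadjusted p of Cry1 was 0.0671. Of 18 antioxidant genes Gpx1, glutathione peroxidase, was higher (99.1, 79.4, 84.3 and 64.01 CPM and 94.6, 103, 99.8, 107 and 115 CPM, 0.35, unadjusted p = 0.0287), which 6 of the 9 fits with a library left out kept under 0.05. The p became 0.126 when vehicle animal 8 was left out, 0.0584 for vehicle animal 4 and 0.0641 for animal 29. The next was Sod1, superoxide dismutase (0.20, unadjusted p = 0.122). Of 17 tested cholesterol synthesis genes 1 was lower, against 1.30% of all genes: Insig1, the sterol-sensing retention protein, which did not overlap (81.7, 80.3, 78.04 and 82.1 CPM and 73.8, 64.6, 68.8, 71.7 and 59.8 CPM, -0.25, unadjusted p = 0.0271). It stayed under 0.05 in 6 of the 9 fits that left out a library, with p of 0.0527 without vehicle animal 8 and 0.0756 without animal 29. The next was Lss, lanosterol synthase (-0.23, unadjusted p = 0.0749).

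The remaining lists held no gene at an unadjusted p under 0.05 with all libraries in the fit. Of 18 immediate early genes, Fos was at 29.05, 28.7, 30.7 and 46.7 CPM in vehicle and 41.8, 26.4, 23.9, 19.4 and 20.2 CPM at 0.1 mg/kg (-0.36), Arc at -0.052 and Npas4 at 0.069, and the smallest p were those of the phosphatase gene Dusp1 (-0.25, unadjusted p = 0.159) and of Homer1 (0.22, unadjusted p = 0.202). This list moved with single libraries. Without vehicle animal 4 its median was -0.26 with 1 of 18 positive. In that fit 2 members were lower at an unadjusted p under 0.05, beside 2.72% of all genes. Without vehicle animal 8 the median was 0.027 with 10 of 18 positive. With a library left out Fos ran from -0.59 to -0.16. Of 11 astrocyte genes Gfap was at 0.18 and the largest difference was in S100b (0.31), and of 11 oligodendrocyte, 5 precursor and 11 microglial genes the differences closest to the threshold were Opalin (-0.17), Gpr17 (0.18) and Tmem119 (0.17). Next to these came the gap junction gene Gja1 of astrocytes (0.20), Cldn11 of oligodendrocytes (0.12), C1ql1 of precursors (-0.18) and Aif1 of microglia (-0.34). Nuclear-encoded respiratory chain genes, 20 in number, had a median of 0.080 with 18 positive values, and the smallest p were those of Ndufa2 of complex I (0.31, unadjusted p = 0.0729) and Cox5a of complex IV (0.23, unadjusted p = 0.0887). For 18 interferon and antigen presentation genes the median was -0.030, with Stat2, a signalling factor, at -0.23 (unadjusted p = 0.0994) and Isg15, a ubiquitin-like protein, at 0.52 (unadjusted p = 0.207). Haemoglobin Hba-a1 was at 55.9, 106, 89.99 and 455 CPM and 92.8, 89.9, 29.8, 148 and 161 CPM, with vehicle animal 8 highest, and Alas2, the first enzyme of haem synthesis in red cells, was at -0.48.

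The effect of 0.1 mg/kg was tested for a difference between striatum and prefrontal cortex over 15028 genes. No gene passed the adjusted threshold with edgeR or DESeq2, and edgeR placed 537 genes (3.57%) at an unadjusted p under 0.05, 191 (1.27%) with a larger and 346 (2.30%) with a smaller effect in striatum, beside 585 with DESeq2. When each mouse was entered as a block, 956 genes were past the unadjusted threshold and none passed the adjustment. For Hspa5 the difference between regions was -0.027 on the log2 scale, with a 95% interval of -0.40 to 0.34, and none of the 20 chaperone list members differed between regions at an unadjusted p under 0.05. With the block, 2 of the 20 had a smaller effect in striatum at that threshold, beside 3.01% of all genes in that fit: Hspb1 (log2 difference -0.53, unadjusted p = 0.0197) and Manf (-0.31, unadjusted p = 0.0301), and Hspa5 was at -0.035 (95% interval -0.25 to 0.18). The genes with the smallest p were Ankfn1 (log2 difference 1.52, unadjusted p = 0.00116) and Zfp28 (0.99, unadjusted p = 0.00162), with a larger effect in striatum, and Arhgap9 (-2.31, unadjusted p = 0.000167) and the chloride channel gene Clcn1 (-0.73, unadjusted p = 0.00183), with a smaller one. In striatum alone these 4 genes had unadjusted p from 0.107 to 0.464.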

How the data were processed

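Per the submitters' processing notes, the reads were checked with FastQC and aligned with HISAT2 to mm10. The counting tool, annotation, strand setting and RNA enrichment are not given in the sources used here. The deposited tables hold raw counts per gene, as whole numbers, which the authors made before deposit. Of 17874 genes in the striatum table, 15118 passed edgeR's expression filter. All 21 striatum libraries were fitted together with edgeR's quasi-likelihood test (edgeR 4.0.16, TMM scaling, robust) and Benjamini-Hochberg adjustment. Prefrontal cortex was fitted in the same way, and the difference between regions was tested as an interaction, without a block in the main fit. The shared animal number in the titles was taken as 1 mouse, which pairs the regions. Deviations of same-numbered libraries from their group means correlated by 0.097 on average (-0.091 to 0.23, above 0.1 in 5 of 9 pairs), and 6 of 9 libraries matched their own number best. The fit with the number as a block is given beside the result. No 2 libraries of a group agreed within sampling noise. DESeq2 1.42.0, other scalings and filters, 1 surrogate variable (sva 3.50.0) and an offset for GC content and length were alternatives. Scripts were tested on simulated data. The text names the 10 higher and 10 lower genes of smallest p between 0.1 mg/kg and vehicle, the 2 members of each list with the smallest p, a set of members named whatever their values (such as Drd1, Th and Ryr1), the 20 chaperone list members, and for the other comparisons the 5 or 2 genes of smallest p on each side. Some genes that this rule selects are not reported here. Pdgfrb, Pecam1 and the members of the 5 added lists were named after their values were seen. Members and lists were chosen with earlier results of these data known. Library size was 8737307 to 12019651 counts, and small counts limit the precision for low genes. Promoter sequences came from RefSeq (GRCm38.p6).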

Additional observations from a re-analysis of the deposited data

Results flagged for a closer look

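Among 296 sets of values checked in the vehicle and 0.1 mg/kg striatum libraries, 24 had 1 library far from the rest of its group by Dixon's criterion, which chance meets in about 1 in 20 sets. In vehicle, animal 8 stood apart for red blood cell markers (summed 545 CPM), Hba-a1 (455 CPM), the cortical factor Fezf2 (35.1 CPM), Bgn (25.03 CPM), Gabra5 (50.1 CPM), Dlgap1 (371 CPM), Cyp1b1 (6.38 CPM), Fos (46.7 CPM) and Trib3 (1.79 CPM). Vehicle animal 4 stood apart for choroid plexus and ependymal markers (summed 742 CPM) and for the only tested liver marker, Apoa2 (1.54 CPM), vehicle animal 3 for astrocyte markers, on the low side (summed 5074 CPM), and vehicle animal 7 for Fkbp5 (49.6 CPM).

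At 0.1 mg/kg, animal 28 stood apart for choroid plexus and ependymal markers (summed 1254 CPM), Sdc4 (82.7 CPM) and the hypothalamic peptide genes Hcrt (6.09 CPM) and Pmch (11.8 CPM). Animal 24 stood apart on the high side for Acta2 (18.1 CPM) and Fezf2 (7.42 CPM). Animal 25 stood apart on the low side for Casp9 (15.02 CPM) and on the high side for Shank1 (274.9 CPM), and animal 29 for the genes Top1 (100.3 CPM) and Ppig (77.5 CPM), which were also among the genes lower at 6 than at 0.1 mg/kg.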

How the results depend on the processing

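No gene passed between 0.1 mg/kg and vehicle under any alternative run except DESeq2, which passed 1. The number at an unadjusted p under 0.05 was 613 with only the 2 groups fitted and 224 to 719 with a library left out (224 without vehicle animal 8, 719 without vehicle animal 4). The chaperone list count was 9 to 14 with a library left out and 12 to 14 under the other alternatives. Between 6 and 0.1 mg/kg the number passing was 1098 with DESeq2, 668 with only the 2 groups, 1192 with 1 surrogate variable, 52 with the GC and length offset and 0 to 442 with a library left out. Between 1 and 0.1 mg/kg it was 83 with DESeq2, 6 with 1 surrogate variable, 42 with the offset, 0 with median-ratio size factors, with no filter or with only the 2 groups, and 0 to 10 with a library left out. The causes were not tested.

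With the animal number as a replicate block, the difference between regions had 0 genes passing, with 956 at an unadjusted p under 0.05 against 537 without it. It also put 2 of the 20 chaperone list members, Hspb1 and Manf, past the unadjusted threshold with a smaller effect in striatum, beside 3.01% of all genes.

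Some named genes changed sign. With the GC and length offset this was Drd1 (-0.0080), Drd2 (0.040), Ryr1 (0.073), Hr (0.0065), Arc (0.066) and Ddit3 (-0.12), and with 1 surrogate variable Drd2 (0.019), Pdyn (0.047), Ryr1 (0.022), Cyp1b1 (0.022) and Arc (0.014). Cyp1b1 was at 0.0032 with no filter and 0.0016 when a mean of 10 counts was required. With a library left out, the ranges that crossed 0 were Alas2 -0.82 to 0.68, Apoa2 -0.46 to 0.088, Arc -0.24 to 0.10, Chat -0.057 to 0.13, Cldn11 -0.0057 to 0.20, Cyp1b1 -0.13 to 0.42, Dbp -0.22 to 0.048, Ddit3 -0.079 to 0.079, Dnajb9 -0.0081 to 0.16, Drd1 -0.11 to 0.14, Drd2 -0.19 to 0.25, Gpr6 -0.22 to 0.12, Hba-a1 -1.05 to 0.31, Kcnj3 -0.21 to 0.073, Klf9 -0.015 to 0.13, Npas4 -0.13 to 0.26, Pdyn -0.16 to 0.10, Penk -0.047 to 0.24, Ppp1r1b -0.32 to 0.16, Ptpn5 -0.0052 to 0.33, Ryr1 -0.20 to 0.16, Ryr3 -0.11 to 0.12, Sp9 -0.093 to 0.011, Tac1 -0.0090 to 0.26, Thrb -0.063 to 0.22 and Trib3 -0.013 to 0.65. Depth limits the genes with few counts, such as Wif1, Galr2 and Catsperd.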
